A study of Mus musculus with 6 samples.

Results

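The glucocorticoid receptor, the enzyme that supplies its ligand inside cells and 6 genes that it is known to induce were followed in femoral bone marrow of mice with and without hindlimb unloading. The 8 genes were taken by symbol from the deposited gene count table, which listed 54532 genes, and all 8 passed the low-count filter that left 15015 genes for testing. The samples were freshly isolated marrow cells of wild-type (WT) mice, 3 from mice without treatment (titled control 1 to 3) and 3 from mice unloaded for 4 weeks (titled OP-HU1 to OP-HU3, here unloaded 1 to 3). In hindlimb unloading the hind limbs are kept off the cage floor, which serves as a model of disuse osteoporosis. The labels give no strain, age or sex, and do not say whether each sample came from its own animal, so the p-values rest on spread among samples that may be technical replicates. The marrow was bulk tissue, so a difference in the number of cells of one type and a difference in RNA per cell cannot be told apart.

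Glucocorticoids such as corticosterone enter the cell and bind a receptor that waits in the cytoplasm in a complex with heat shock chaperones. The bound receptor moves to the nucleus, where it binds DNA elements and raises the transcription of genes such as Fkbp5, Tsc22d3 and Sgk1, and lowers that of many cytokine genes. In marrow this hormone is known to hold back inflammation, to drive death of lymphoid precursors and to release neutrophils, and prolonged excess is a known cause of bone loss. Conversion between active and inert hormone by the Hsd11b enzymes sets how much ligand a cell sees.

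Libraries held 15850986 to 17775506 counts, and levels are given as CPM, counts scaled to the TMM-adjusted library size, where 3 counts corresponded to 0.169 to 0.189 CPM of the unadjusted total. The defining markers of marrow were present, with the neutrophil granule gene Ngp at a mean of 11758 CPM, the globin gene Hba-a1 at 2166 CPM and the B cell gene Cd79a at 146 CPM over the 6 libraries. The adipocyte genes Plin1 and Lep had 0 counts in all libraries. The library of unloaded 1 stood apart: its score on the leading principal component was 51.3, and those of the other libraries were -13.7 to -7.37. Mitochondrial transcripts took 0.439% of its reads, compared with 1.05% to 1.27% in the rest. For the 8 genes and the genes listed with them, values without that library stand beside those with it where they differ most.

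None of the 8 genes passed the test across all genes. By edgeR's quasi-likelihood test with Benjamini-Hochberg adjustment, 0 of 15015 genes were called at an adjusted p under 0.05 (0%), and DESeq2 called 35 of them (0.233%), none of the 8 among these. Before adjustment Nr3c1, Sgk1 and Ddit4 had an edgeR p under 0.05, with the unloaded mean below the control mean in each. The corresponding share of all tested genes was 5.85%, of which 3.18% lay lower and 2.67% higher. Over the 8 genes 6 fold changes were negative and 2 positive, with a median log2 fold change of -0.30, against a median of 0.0054 over all tested genes. Without unloaded 1 the same 3 genes had p under 0.05, beside 8.98% of all genes, 7 of the 8 fold changes were negative and the median was -0.23. In that fit edgeR called 5 genes at an adjusted p under 0.05 (0.0324%), none of the 8 among these. The groups then did not overlap for Nr3c1, Sgk1, Ddit4 and Zbtb16, with the unloaded values below, while 26.1% of all genes had no overlap. The count rested on single controls as well: without control 1, 0 of the 8 had p under 0.05 (3.1% of all genes) and the median was -0.19, and without control 3 only Nr3c1 did (4.65% of all genes). It was 4 without unloaded 3 (7.01% of all genes), with Fkbp5 and Tsc22d3 in place of Ddit4. Of these 4, Fkbp5 had a higher unloaded mean (log2 fold change 0.81) and the others, such as Tsc22d3 (-0.64), a lower one.

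**Figure D1:**
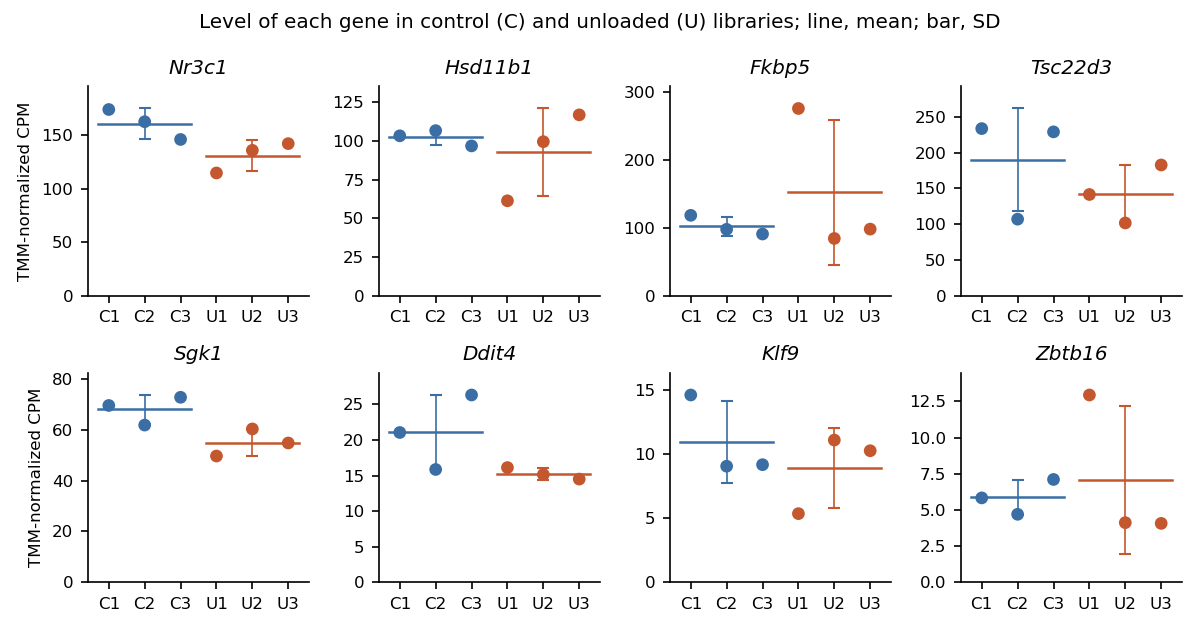
TMM-normalized CPM of the 8 genes in each library (C, control; U, unloaded), with the group mean as a line and the SD as a bar (n = 3). Fkbp5 and Zbtb16 are highest in unloaded 1, at 275 and 12.9 CPM. Nr3c1, Hsd11b1, Sgk1 and Klf9 are lowest there, at 115, 61.3, 49.6 and 5.35 CPM. Unloaded 1 is thus the highest library for 2 and the lowest for 4 of the 8 genes, beside 28.2% and 29.5% of all genes.

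Nr3c1 (ENSMUSG00000024431), on mm10 chromosome 18 from 39410545 to 39491301, encodes the glucocorticoid receptor itself. It stood at 174, 163 and 146 CPM in controls 1 to 3 and at 115, 136 and 142 CPM in unloaded 1 to 3. All 3 unloaded values lay below all 3 control values, but control 3 and unloaded 3 were close together. Groups that do not overlap were seen for 11.9% of all tested genes, and for 6.4% with the unloaded values below. Controls averaged 161 ± 14.1 CPM and unloaded samples 131 ± 14.4 CPM (SD, n = 3), which gave a log2 fold change of -0.30 ± 0.12 (SE). The edgeR p was 0.0278 before adjustment and the adjusted p 0.804. Without unloaded 1 the fold change was -0.21 ± 0.093. Its closest relative Nr3c2, which encodes the mineralocorticoid receptor that binds the same hormone, had 0 to 19 counts per library and was not tested. Across all 6 libraries the receptor transcript varied over a 1.52-fold range.

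Hsd11b1 (ENSMUSG00000016194, chromosome 1, 193221634 to 193264075) encodes the enzyme that regenerates active corticosterone from its inert form. Its levels were 103, 107 and 96.7 CPM in controls and 61.3, 99.4 and 117 CPM after unloading. The controls lay close together, whereas the unloaded group held both the lowest and the highest of the 6 values. The log2 fold change was -0.14 ± 0.19 (edgeR adjusted p = 0.936), and without unloaded 1 it was 0.081 ± 0.093. Lamb3, a gene on the opposite strand that overlaps Hsd11b1, had 102 to 168 counts per library where Hsd11b1 had 962 to 1890. The counting strand is not given in the sources used here, so reads in the overlap cannot be told apart. H6pd, which supplies the cofactor of this enzyme, was at a log2 fold change of -0.15 ± 0.10. Hsd11b2, whose product inactivates the hormone, was near the floor of these libraries at 0.241 to 0.802 CPM.

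Fkbp5 (ENSMUSG00000024222, chromosome 17, 28399094 to 28517527) encodes FKBP51, a chaperone partner that holds the receptor in a state of low hormone affinity and is itself induced by it. Its levels were 118, 97.8 and 90.9 CPM in controls and 275, 84.4 and 98.1 CPM in unloaded 1 to 3. The other 5 libraries lay between 84.4 and 118 CPM, and unloaded 1 alone was 2.81-fold above their mean. The group means were 102 ± 14.3 and 153 ± 106 CPM (SD, n = 3), and the log2 fold change was 0.58 ± 0.36 (edgeR adjusted p = 0.896). Without unloaded 1 it changed sign, to -0.17 ± 0.12 (edgeR adjusted p = 0.718). With no low-count filter Fkbp5 passed edgeR's test, at a log2 fold change of 0.56 ± 0.13 and an adjusted p of 0.0031. In that fit 183 of 27287 genes were called, and Nr3c1, Tsc22d3 and Hsd11b1 also had an SE of 0.13. Among 8966 protein-coding genes with a mean of at least 10 CPM, the ratio of unloaded 1 to the other libraries ranked 5 from the top for Fkbp5. Only 24 of those genes were at least 2-fold above the other 5 libraries. Fkbp4, the related chaperone that favours hormone binding, was at 220 CPM in unloaded 1 and 159 to 192 CPM elsewhere, with a log2 fold change of 0.13 ± 0.12 between the groups and 0.023 ± 0.097 without that library. Noncoding genes that overlap Fkbp5 had at most 9 counts in a library, against 1432 to 4319 for Fkbp5.

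The DNA in front of the genes is shown for the targets whose values differ most between libraries or whose upstream sequence holds the binding element of the receptor. Windows from 250 bases before to 50 bases after each start site were taken from RefSeq (GRCm38.p6, the assembly of mm10). For 6 of the 8 genes windows were searched, 13 in all. Windows on the chromosome of Nr3c1 were left out of this search of the 8 genes, so the receptor gene itself was not searched. Zbtb16 was not matched. Each window was searched on both strands for the core AGAACA of the glucocorticoid response element and for the full element, which is AGAACA, any 3 bases, then TGTTCT. In the upstream stretch of Fkbp5 that ends at its start site (chr17:28486150-28486299, minus strand), neither was found, which says only that these letters are not in this window. The stretch lies within longer Fkbp5 transcripts of GENCODE M21 and overlaps none of their exons.
Fkbp5 upstream: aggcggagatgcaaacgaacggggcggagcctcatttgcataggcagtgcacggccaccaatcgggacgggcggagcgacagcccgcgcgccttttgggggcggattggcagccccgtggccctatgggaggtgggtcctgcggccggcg

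Il1r2 was the gene whose pattern over the 6 libraries was most like that of Fkbp5, with a root mean square difference of 0.086 in centred log2 CPM among 8965 candidates. Il1r2 encodes a decoy receptor for interleukin-1 and stood on the lists of other glucocorticoid-induced genes and of mature neutrophil markers used here. It stood at 154 CPM in unloaded 1 and at 55.0 to 68.1 CPM elsewhere. Hdc, the histidine decarboxylase of basophils and neutrophils, followed with a difference of 0.11 and was at 936 CPM in unloaded 1 against 270 to 393 CPM. Cnnm2, a magnesium transporter gene, was next with 0.14, at 35.5 CPM in unloaded 1 and 13.7 to 16.0 CPM in the others. All 3 were, like Fkbp5, highest in unloaded 1, which weighs most in this measure.

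Zbtb16 (ENSMUSG00000066687, chromosome 9, 48654297 to 48836222) encodes PLZF, a zinc finger repressor of progenitors and innate-like lymphocytes that glucocorticoids strongly induce in several tissues. The levels were 5.83, 4.70 and 7.11 CPM in controls and 12.9, 4.12 and 4.07 CPM after unloading. As for Fkbp5, unloaded 1 was the highest of the 6 libraries, here at 2.50-fold the mean of the others. The remaining unloaded values of Zbtb16 were the lowest of the 6, which was not so for Fkbp5. The log2 fold change was 0.26 ± 0.41 (edgeR adjusted p = 0.950) with all libraries and -0.52 ± 0.25 (adjusted p = 0.572) without unloaded 1. Counts of 66 to 203 per library limit the precision. The summed level of 12 markers of T, NK and innate lymphoid cells, in which Zbtb16 can be expressed, was 186 CPM in unloaded 1 and 171 to 202 CPM elsewhere. Nkg7 and Il7r supplied most of that sum, at 74.0 and 42.8 CPM in unloaded 1. That library was the highest for 2 of the 12, beside 28.2% of all genes, and the lowest for 1, beside 29.5%. The 2 were Gzma, at 10.1 CPM against 3.56 to 6.975 CPM, and Cd3d, at 11.5 CPM against 6.27 to 9.72 CPM.

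**Figure D2:**
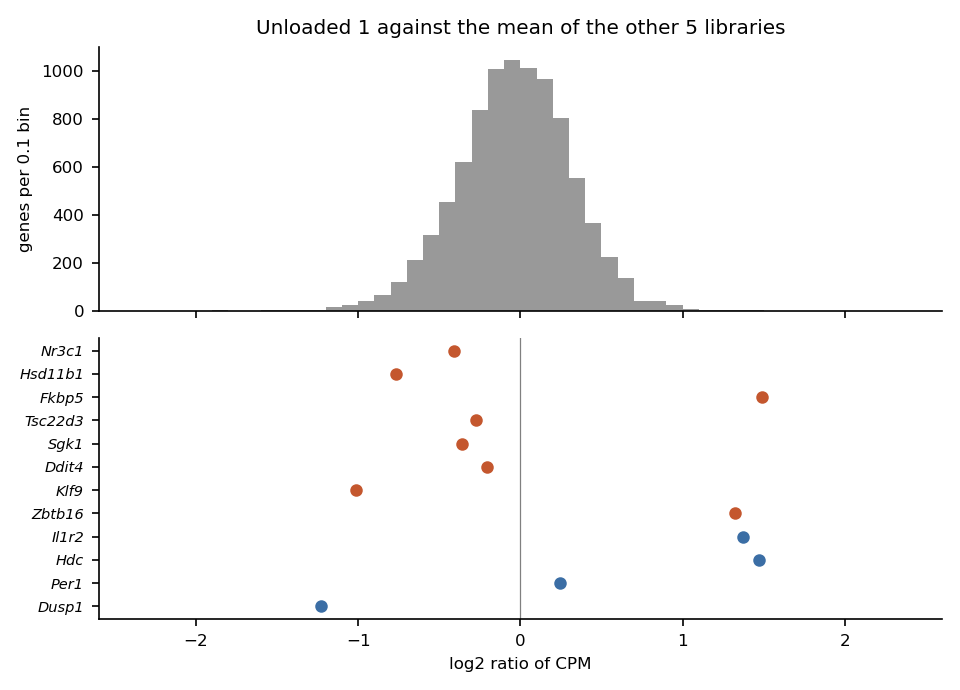
Log2 ratio of CPM in unloaded 1 to the mean of the other 5 libraries, as the number of genes per bin for 8966 protein-coding genes (top) and for single genes (bottom; orange, the 8 genes; blue, other genes named in the text). Fkbp5 and Zbtb16 lie at 1.49 and 1.32, beside Il1r2 and Hdc at 1.37 and 1.47, while Klf9 lies at -1.02.

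Tsc22d3 (ENSMUSG00000031431, X chromosome, 140539528 to 140600659) encodes GILZ, a leucine zipper protein that mediates much of the anti-inflammatory action of the hormone. Its levels were 233, 107 and 229 CPM in controls and 141, 102 and 183 CPM after unloading. The 3 controls differed by 2.18-fold, and control 2 and unloaded 2 were the lowest of the 6, so the groups overlapped throughout. The means were 190 ± 71.7 and 142 ± 40.5 CPM (SD, n = 3), with a log2 fold change of -0.42 ± 0.28 (edgeR adjusted p = 0.896). Without control 2 it was -0.70 and without unloaded 2 it was -0.23. Unlike Fkbp5, Tsc22d3 was not high in unloaded 1, which stood at 82.8% of the mean of the other libraries. Its spread within groups, an SD of 0.54 in log2 CPM, was larger than that of 99.5% of the 8966 genes.

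One of the 3 Tsc22d3 windows held the core of the element, on the opposite strand to the gene, 185 to 180 bases before the outermost of its RefSeq starts. The stretch around it (chrX:140600673-140600772, minus strand) is shown with that core in capitals and lies upstream of the M21 exons of the gene. A core of this kind was present in 19% of all 32817 RefSeq windows of the same length, so it is a common sequence.
Tsc22d3 upstream: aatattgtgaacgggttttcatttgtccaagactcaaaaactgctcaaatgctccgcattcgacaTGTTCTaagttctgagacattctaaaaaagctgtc

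The genes closest to Tsc22d3 in pattern were less close than those to Fkbp5, with root mean square differences of 0.22 for the interferon-inducible gene Xaf1, 0.28 for Rasl11b and 0.30 for Erc1. Xaf1 was at 12.3, 7.90 and 12.9 CPM in controls and at 9.43, 7.89 and 10.2 CPM after unloading. The phosphatase gene Dusp1 and the chemokine gene Cxcl2, chosen here after their values were seen, also had their 3 highest values in control 1, control 3 and unloaded 3. Dusp1 was at 735, 588 and 618 CPM in these and at 229 to 375 CPM in the other libraries. Cxcl2 was at 62.1, 84.9 and 80.6 CPM against 22.8 to 35.4 CPM. Dusp1 is a known target that the receptor induces, and Cxcl2 is one that it represses.

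Sgk1 (ENSMUSG00000019970, chromosome 10, 21882184 to 21999903) encodes the serum- and glucocorticoid-regulated kinase, which controls ion channels and FOXO factors. Its levels were 69.5, 61.8 and 72.7 CPM in controls and 49.6, 60.3 and 54.8 CPM after unloading. All 3 unloaded values lay below all 3 control values, with control 2 and unloaded 2 nearly level. Group means were 68.0 ± 5.61 and 54.9 ± 5.32 CPM (SD, n = 3), which gave a log2 fold change of -0.31 ± 0.12. The edgeR p was 0.0218 before adjustment, the smallest of the 8 genes, and the adjusted p was 0.804. Without unloaded 1 the fold change was -0.24 ± 0.10, and with any library left out it stayed between -0.38 and -0.24.

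Of the 13 windows searched, 6 were in front of Sgk1, and 1 of these was the only window with the full element. No window of Nr3c1 or Zbtb16 was searched, and DNA outside the windows was not searched for any gene. The RefSeq window numbered 5, in front of an internal start site, carries it at 189 to 175 bases before that start (chromosome 10, 21993701 to 21993715), plus a further core 242 to 237 bases before it. The full element was present in 3 of 32817 windows (0.00914%), the other two being in front of Acnat2 and Gm35041. The 250 bases before that start lie within longer Sgk1 transcripts and overlap no Sgk1 exon of GENCODE M21. The upstream stretch (chr10:21993640-21993889, plus strand) and the far end of the first window, at the outermost start (chr10:21881934-21882033, plus strand), are shown with each core in capitals. A match is a description of the letters, and binding of the receptor was not measured.
Sgk1 internal start: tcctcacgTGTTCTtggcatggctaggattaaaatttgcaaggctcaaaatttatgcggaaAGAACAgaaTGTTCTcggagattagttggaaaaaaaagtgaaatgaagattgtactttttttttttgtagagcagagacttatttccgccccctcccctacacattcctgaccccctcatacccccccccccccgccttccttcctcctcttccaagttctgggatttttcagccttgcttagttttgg
Sgk1 outermost start: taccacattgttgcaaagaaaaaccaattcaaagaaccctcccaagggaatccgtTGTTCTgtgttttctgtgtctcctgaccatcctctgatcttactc

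In all, 4 of the 13 windows searched held a core, 3 of them in front of Sgk1 and 1 in front of Tsc22d3. No core was found in the windows of Fkbp5, Ddit4, Klf9 and Hsd11b1. Among all RefSeq genes, 21.3% had a core in at least 1 window.

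Ddit4 (ENSMUSG00000020108, chromosome 10, 59949669 to 59951834) encodes REDD1, an inhibitor of mTOR signalling that is induced by glucocorticoids and by lack of oxygen or energy. It stood at 21.05, 15.9 and 26.3 CPM in controls and 16.1, 15.1 and 14.5 CPM after unloading. The 3 unloaded libraries were close together (15.3 ± 0.814 CPM), while the controls spread widely (21.1 ± 5.23 CPM), and control 2 lay within the unloaded range. The log2 fold change was -0.47 ± 0.18 (edgeR adjusted p = 0.804, unadjusted p = 0.0272). Without control 3 it was -0.28 ± 0.18, and without control 2 it was -0.64 ± 0.17.

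Klf9 (ENSMUSG00000033863, chromosome 19, 23141226 to 23166911) encodes a Krüppel-like transcription factor that glucocorticoids induce in many cell types. Its levels were 14.6, 9.04 and 9.16 CPM in controls and 5.35, 11.1 and 10.2 CPM after unloading. The groups overlapped, with the highest value in control 1 and the lowest in unloaded 1, which stood at 49.5% of the mean of the other libraries. The log2 fold change was -0.30 ± 0.29 (edgeR adjusted p = 0.924). It was -0.031 without control 1 and -0.037 without unloaded 1. Klf13, a close relative, was at 370 CPM in unloaded 1 and 218 to 292 CPM elsewhere, the opposite order to Klf9 in that library.

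**Figure D3:**
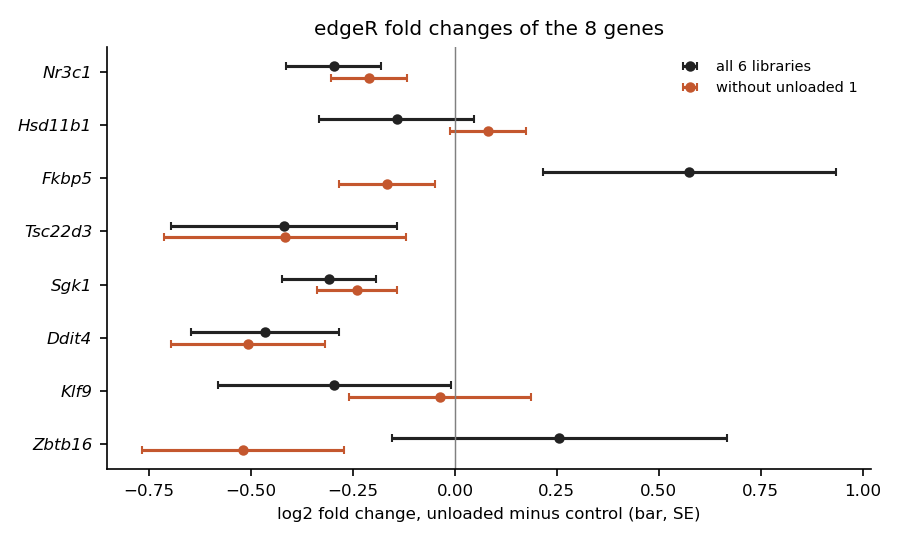
EdgeR log2 fold changes, unloaded minus control, with their SE, from all 6 libraries (black) and without unloaded 1 (orange). Fkbp5 and Zbtb16 move from 0.58 and 0.26 to -0.17 and -0.52, while Nr3c1, Sgk1, Ddit4 and Tsc22d3 stay negative in both fits.

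Per unit of gene length, as TPM (counts divided by the deposited gene length and scaled to a common total), Tsc22d3 was the most abundant of the 8 at 106 ± 38.5 TPM (SD over 6 libraries). Hsd11b1 followed at 63.4 ± 12.1 and Nr3c1 at 54.5 ± 7.61 TPM. Fkbp5, Sgk1 and Ddit4 were at 37.2 ± 21.1, 34.8 ± 5.46 and 28.8 ± 7.86 TPM. Klf9 and Zbtb16 were lower, at 8.44 ± 2.64 and 3.39 ± 1.76 TPM. Only the step from Ddit4 to Klf9 held in all 6 libraries. Fkbp5 exceeded Sgk1 in 1 library alone, unloaded 1, so these neighbours were not separated beyond their spread. Every other step between neighbours held in 5 of 6 libraries.

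**Figure D4:**
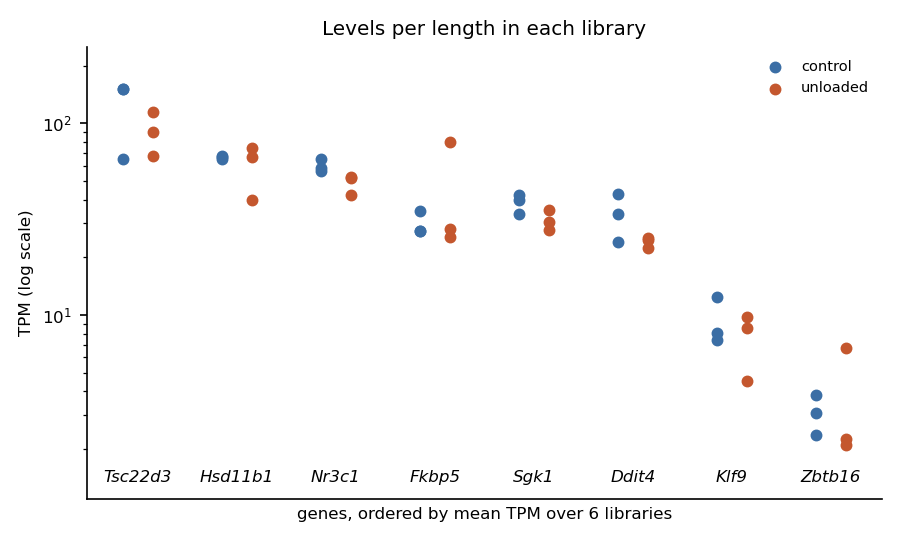
TPM of the 8 genes in each library on a log scale, ordered by the mean over 6 libraries (blue, control; orange, unloaded). Tsc22d3 spans 65.5 to 150 TPM, and the Fkbp5 value of unloaded 1, at 79.9 TPM, stands above its other 5 values.

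The wider pathway was described with lists of known genes, none of which had a member past the edgeR threshold. Among 14 chaperones and cochaperones of the receptor, 12 fold changes were positive and 2 negative, with a median log2 fold change of 0.12, or 0.061 without unloaded 1 and 0.066 without control 3. Stip1, which hands the receptor between chaperones, had 0.27 ± 0.13, the heat shock protein gene Hspa8 0.41 ± 0.25 and the cochaperone gene Ptges3 0.19 ± 0.12. Dnaja1 and Ppp5c were the 2 below zero, at -0.061 ± 0.15 and -0.054 ± 0.12. Unloaded 1 was the highest library for 8 of the 14, against 28.2% of all genes, and its Hspa8 level of 2564 CPM compared with 1121 to 1536 CPM elsewhere. Without that library Hspa8 was at 0.021 ± 0.14, Stip1 at 0.13 ± 0.088, Dnaja1 at -0.15 ± 0.14 and Ppp5c at 0.070 ± 0.080. Of 14 coregulators 10 were negative, with a median of -0.065. Omitting control 1 gave 0.0030, omitting unloaded 3 gave 0.0097 and omitting unloaded 1 gave -0.15, so its sign rested on single libraries. Ep300, Ncoa2 and Crebbp, which encode coactivators, had -0.24 ± 0.13, -0.19 ± 0.11 and -0.11 ± 0.12, while Nrip1, Hdac2 and Ncor1 had 0.084 ± 0.14, 0.023 ± 0.16 and 0.025 ± 0.12. Without unloaded 1 these last 3 were at 0.17 ± 0.13, 0.20 ± 0.085 and -0.028 ± 0.11.

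Other genes that glucocorticoids are known to induce numbered 28, of which 26 were tested, 18 with a negative and 8 with a positive fold change (median -0.19, or -0.20 without unloaded 1, -0.080 without control 1 and -0.11 without unloaded 3). Before adjustment 2 of the 26 had an edgeR p under 0.05, both with a lower unloaded mean, beside 5.85% of all tested genes. Without unloaded 1 it was 6 of the 26, beside 8.98%. The 2 with all libraries were Cxcr4, the receptor that retains leukocytes in marrow, and Txnip, an inhibitor of thioredoxin. Cxcr4 was at 386, 343 and 345 CPM in controls and 241, 279 and 306 CPM after unloading, with no overlap (log2 -0.38 ± 0.12; edgeR adjusted p = 0.760). Txnip was at 392, 368 and 406 CPM in controls and 302, 312 and 334 CPM after unloading (log2 -0.30 ± 0.10; edgeR adjusted p = 0.801). The signalling regulator gene Rgs2 had -0.25 ± 0.12. Il1r2, Mt1 and Glul led the positive side with 0.55 ± 0.32, 0.18 ± 0.14 and 0.16 ± 0.16. Without unloaded 1 Il1r2 and Glul turned to -0.091 ± 0.10 and -0.069 ± 0.098, and Mt1 was at 0.19 ± 0.14. Mt2 and Pdk4 were too low to test, at 2 to 15 and 0 to 8 counts.

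In unloaded 1 these induced genes did not move as one group. It was the highest of the 6 libraries for 7 of the 26 and the lowest for 7, close to the 28.2% and 29.5% of all genes. Il1r2 was 2.59-fold above the mean of the other libraries, but Dusp1 was at 42.7% of it and the clock gene Per1, at 90.3 CPM, lay inside the range of the others. Of 11 tested cytokine and inflammatory genes that the receptor represses, unloaded 1 was the lowest library for 8 and the highest for Icam1, with a median log2 ratio to the other libraries of -0.88. Tnf was at 15.9 CPM there and at 25.5 to 32.2 CPM elsewhere. Between groups 9 of these 11 were negative (median -0.40, or -0.22 without unloaded 1 and -0.23 without control 1), with Tnf at -0.48 ± 0.18, Ccl3 at -0.40 ± 0.17 and Ptgs2 at -0.55 ± 0.30. Icam1 and Il6 were positive at 0.30 ± 0.21 and 0.12 ± 0.72. Il6 was near the floor of these libraries, at 0.0637 CPM in unloaded 1 and 0.343 to 1.30 CPM elsewhere. Without unloaded 1 Tnf was at -0.28 ± 0.10, Ptgs2 at -0.30 ± 0.25, Icam1 at 0.017 ± 0.15 and Il6 at 0.65 ± 0.52. Immediate early genes, which respond within minutes to hormones and to handling, were also low in that library: unloaded 1 was the lowest library for 7 of 12, and 11 of 12 fold changes were negative (median -0.46, or -0.38 without unloaded 1 and -0.18 without control 1). Junb had -0.51 ± 0.17, Fosb -1.02 ± 0.37, Jun -0.60 ± 0.23 and Ier3 0.059 ± 0.12. Of the 12, 6 had an edgeR p under 0.05 before adjustment, beside 5.85% of all genes, and 2 did without unloaded 1, beside 8.98%, all with a lower unloaded mean. Without unloaded 1 Junb was at -0.33 ± 0.12 and Fosb at -0.69 ± 0.29. Control 1 was the highest library for their summed level, at 5335 CPM against 2126 to 3655 CPM.

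**Figure D5:**
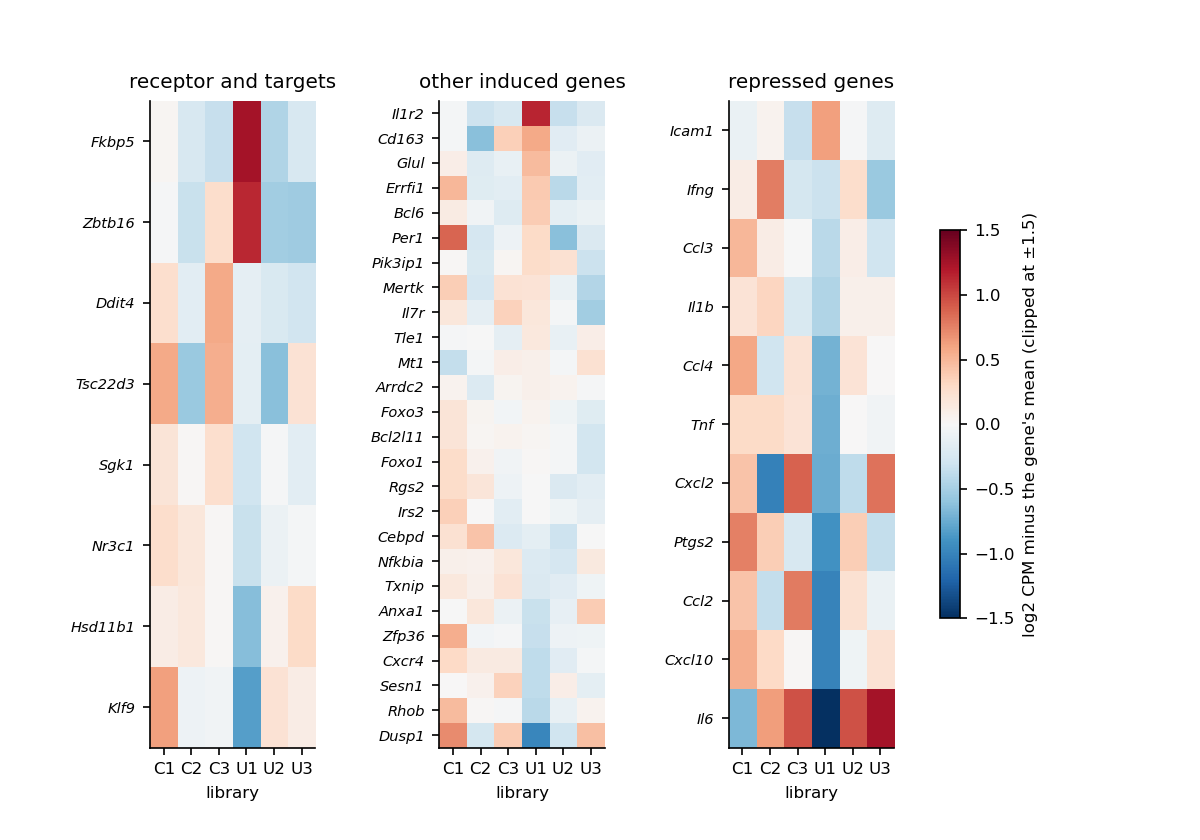
Log2 CPM minus each gene's mean over the 6 libraries (C, control; U, unloaded; colours clipped at 1.5 in either direction, rows ordered by the value in unloaded 1) for the 8 genes, other induced genes and repressed genes. Unloaded 1 is high for Fkbp5, Zbtb16 and Il1r2 and low for 8 of 11 repressed genes, while Tsc22d3 is low in control 2 and unloaded 2.

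Relatives and partners of the 8 genes gave a similar range. Of 18 relatives, 14 were tested, 10 with a negative fold change (median -0.12). Klf4, a monocyte regulator, had -0.61 ± 0.22 and did not overlap between groups (edgeR adjusted p = 0.801), Tsc22d2 had -0.36 ± 0.15 and Klf2 -0.30 ± 0.18. Without unloaded 1 these were -0.38 ± 0.14, -0.23 ± 0.12 and -0.20 ± 0.16. Hsd11b2 had 0.22 ± 0.53 at under 1 CPM. Tsc22d1 and Tsc22d4, which share the leucine zipper of Tsc22d3, had -0.20 ± 0.14 and -0.13 ± 0.11, and Tsc22d4 was at -0.21 ± 0.088 without unloaded 1. In the pathways on which SGK1 and REDD1 act, 9 of 16 were negative with a median of -0.018, or -0.063 without unloaded 1. Sesn1, Pdpk1 and Nedd4 were at -0.27 ± 0.15, -0.29 ± 0.17 and -0.22 ± 0.18, and Tsc1, Tsc2 and Rps6kb1 at 0.085 ± 0.13, 0.056 ± 0.11 and 0.047 ± 0.11. Without unloaded 1 Sesn1, Pdpk1 and Nedd4 were at -0.16 ± 0.12, -0.098 ± 0.089 and -0.011 ± 0.083, and Tsc1, Tsc2 and Rps6kb1 at -0.033 ± 0.10, 0.0088 ± 0.092 and 0.13 ± 0.089.

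The cell types that could carry these transcripts also varied between libraries. Summed over 10 basophil, mast cell and eosinophil markers, unloaded 1 reached 3262 CPM against 1649 to 2232 CPM, led by Prg2, Hdc and Epx. The basophil-defining genes Mcpt8 and Fcer1a were lower than in any control in all 3 unloaded libraries. Mcpt8 was at 60.4, 78.5 and 66.7 CPM in unloaded 1 to 3 and at least 79.9 CPM in controls. Fcer1a was at 7.33, 9.66 and 10.5 CPM and at least 12.4 CPM. Of the 10 markers 3 had all unloaded values below and 1 had them above, beside 6.4% and 5.46% of all tested genes. The 10 monocyte markers, led by Fn1, Ly6c2 and F13a1, summed to 4193 CPM in unloaded 1 and 3268 to 3894 CPM elsewhere. Members went both ways there: unloaded 1 was the highest library for 4 of the 10 and the lowest for 2, beside 28.2% and 29.5% of all genes. F13a1, Vcan and Cd14 were highest there at 785, 253 and 75.8 CPM, while Ly6c2 and Klf4 were lowest, at 563 and 48.6 CPM. Among the 8966 protein-coding genes, the ratio of unloaded 1 to the other libraries ranked 1 from the top for Vcan and 3 for Cd14. Mature neutrophil markers (S100a9, S100a8, Mmp9) summed to 27133 to 32609 CPM and neutrophil precursor markers (Ngp, Ltf, Chil3) to 29927 to 37492 CPM, with unloaded 1 inside both ranges. S100a9 and S100a8 made up most of the mature sum. Unloaded 1 was the highest library for 4 of these 12 mature markers and the lowest for 2, beside 28.2% and 29.5% of all genes. Il1r2 and Clec4d were highest there, at 154 and 162 CPM against 55.0 to 68.1 and 64.0 to 89.2 CPM. Mmp9 was lowest there, at 2109 CPM against 2649 to 3242 CPM. Stromal and osteoblast markers (Col1a1, Col1a2, Cxcl12) were lowest in unloaded 1 at 95.6 CPM, next to control 2 at 125 CPM, and ran from 180 to 273 CPM in the rest. Endothelial markers (Pecam1, Eng, Tie1) summed to 87.6 CPM there and 101 to 122 CPM elsewhere, and adipocyte markers (Lpl, Fabp4, Pparg) to 26.3 and 27.1 to 54.0 CPM.

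Erythroid markers (Hba-a1, Hbb-bs, Car2) summed to 4555 to 5483 CPM in controls and 5597 to 7375 CPM after unloading. The globin genes made up most of that sum, and Car2 was at 299 CPM in unloaded 1 against 579 to 767 CPM elsewhere. The median fold change of the 10 markers was 0.22, or -0.066 without unloaded 2. Megakaryocyte markers (Itga2b, Vwf, Pf4) summed to 124 to 127 CPM and 83.9 to 107 CPM. The sum of B lineage markers (among them Cd79a and Cd79b) overlapped between groups, at 780 to 904 and 578 to 796 CPM. All 10 of their fold changes were negative, with a median of -0.23, or -0.35 without unloaded 1. Before adjustment 4 of the 10 had an edgeR p under 0.05, beside 5.85% of all tested genes. T, NK and innate lymphoid markers (Nkg7, Il7r, Cd8a) summed to 171 to 199 and 173 to 202 CPM. Of their 12 fold changes 9 were positive and 3 negative, with a median of 0.30, or 0.32 without unloaded 1. The part of these cell types in the values of Fkbp5, Zbtb16, Nr3c1 or Sgk1 was not tested.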

How the data were processed

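Total RNA of 6 marrow samples was sequenced after library preparation with a NEBNext Ultra kit, per the labels' protocols. The submitters' processing notes name CASAVA, HISAT2 2.0.5, featureCounts 1.5.0-p3 and the build mm10. Neither annotation release nor strand setting is given in the sources used here. The authors deposited unnormalized counts for each gene, whole numbers with unequal totals, beside a gene length.

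Groups were taken from the sample titles. Genes kept by filterByExpr were scaled with TMM factors and compared with edgeR 4.0.16 (glmQLFit, glmQLFTest) in R 4.3.3, and p-values were adjusted by Benjamini-Hochberg over all tested genes with a threshold of 0.05. Each SE was derived from the fold change and the F statistic of its test. A prior count of 2 was added for log2 CPM. The fits were tested on simulated data, where the share of false calls was highest for DESeq2 and above its threshold. Limits at 3 counts cover counting error only.

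The 8 genes and the 19 gene lists were chosen with earlier results of these data known, so no list was tested. Named genes were the 8, the 3 with the smallest p in each direction of a pathway list, the 3 most abundant of a cell type list, relatives of the 8, and the 3 nearest patterns to Fkbp5 and to Tsc22d3. Dusp1, Cxcl2, Per1, Mcpt8, Fcer1a, Gzma, Cd3d, Clec4d, Vcan and Cd14 were added after their values were seen. Some genes that this rule names are not reported here. DESeq2 1.42.0, limma 3.58.1, other scalings and filters, protein-coding genes alone, each library left out and a replicate block were tried.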

Additional observations from a re-analysis of the deposited data

How the results depend on the processing

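Direction was kept under all 16 alternatives for Nr3c1, Tsc22d3, Sgk1, Ddit4 and Klf9, and none of these genes passed an adjusted p of 0.05 in any of them. For Fkbp5 the sign turned with limma-voom library weights (-0.038), without unloaded 1 (-0.17) and with DESeq2 without unloaded 1 (-0.17). With no low-count filter Fkbp5 passed edgeR's test at 0.56 (adjusted p = 0.0031). The SE of Fkbp5 was 0.13 in that fit and 0.36 with the filter, and the cause was not tested. Its adjusted p ranged from 0.0031 to 0.999 across the alternatives. Zbtb16 turned to -0.36, -0.52 and -0.52 under the same weights and the same 2 omissions, and Hsd11b1 to 0.081 without unloaded 1, or 0.079 with DESeq2. Of the 8 genes, 5 had an edgeR p under 0.05 before adjustment with no low-count filter, beside 5.91% of all genes, and 3 with it, beside 5.85%.

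Leaving out each library in turn gave -0.36 to -0.21 for Nr3c1, -0.17 to 0.86 for Fkbp5, -0.70 to -0.23 for Tsc22d3, -0.38 to -0.24 for Sgk1, -0.64 to -0.28 for Ddit4, -0.49 to -0.031 for Klf9, -0.52 to 0.53 for Zbtb16 and -0.35 to 0.081 for Hsd11b1.

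Across all genes 0 were called by edgeR. The number was 35 with DESeq2, 67 with DESeq2 without unloaded 1, 8 with library weights, 183 with no low-count filter and 0 to 5 with a library left out, the 5 being without unloaded 1. At an unadjusted p under 0.05 edgeR gave 879 genes. Medians of the lists and of all tested genes moved by less than a set limit in 306 of 320 values, and 14 of the 320 changed sign. For a list the limit was 1 SD, within groups, of its mean log2 CPM per library, and for all tested genes it was a fixed value. The replicate number as a block called 1 gene. The titles share only a number: deviations of same-numbered libraries correlated at 0.031, -0.063 and 0.019, and the highest of all pairs was control 3 with unloaded 2 (0.094). Depth limits Zbtb16, Klf9, Nr3c2 and Hsd11b2 most.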
